A study of Mus musculus with 12 samples.

Results

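The effects of an HRC variant and a MYBPC3 deletion on heart gene expression were tested for additivity in 12 mouse heart libraries, 3 in each of 4 groups, all of which enter the comparison. Non transgenic mice were C57BL wild type. The MYBPC3Δ25bp homozygous mice carried a deletion of 25 bp in MYBPC3, and the HRCS96A mutant mice were heterozygous for the S96A variant of HRC. Compound mice, labelled HRCS96A Het+MYBPC3Δ25bp Hom, carried both. All hearts were taken at 6 months from mice on a C57BL background. The nontransgenic and the deletion groups each held 2 males and 1 female (replicate 3 in both), and the HRC variant and compound groups held females only. The labels call the mice transgenic and name neither a promoter nor a founder line, and they do not say whether a sample is 1 animal, so a p-value reflects how far these libraries spread, which may be technical. The labels also do not say which chambers were taken.

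HRC, the histidine-rich calcium-binding protein, sits in the lumen of the sarcoplasmic reticulum, binds calcium there and touches both the calcium pump SERCA2 and the ryanodine receptor complex through triadin. Cardiac myosin-binding protein C, the product of Mybpc3, lies on the thick filament and tunes how myosin engages actin; variants of the human gene are a common cause of hypertrophic cardiomyopathy. Both alterations therefore touch contraction, one through calcium storage and the other through the filament. If they acted independently on the log scale, the compound heart would differ from the nontransgenic heart by the sum of the single differences.

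For each gene, the departure from additivity was the log2 level in compound hearts minus that in MYBPC3 deletion hearts minus that in HRC variant hearts plus that in nontransgenic hearts. It was fitted with edgeR over 13849 of 17379 genes, with sex as a term, and levels are given as CPM, the count divided by library size, in replicate order. A positive departure means that compound hearts lay above the sum, a negative one that they lay below it. Genes were then described by their fitted log2 differences from nontransgenic hearts, with a limit of 0.5. In rescue, a single alteration moved the gene past the limit and the compound heart lay within it. In masking, the compound heart lay past the limit in the direction of a single alteration but short of the sum. In excess, it went further than the sum with no single difference past the limit against it, and in reversal it lay past the limit on the side opposite to a single difference past the limit. These words name arithmetic patterns only. A single group that stands apart is enough to produce one: nontransgenic hearts standing apart read as masking, compound hearts as excess, and 1 single-mutant group as rescue. The single differences, the compound difference and the departure all share the nontransgenic libraries, so their values are set side by side and not correlated.

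Library totals ran from 15615182 to 20581197 counts. Groups differed in several measures that bear on the results. The summed level of 20 atrial muscle markers was 6519, 12894 and 9068 CPM in nontransgenic hearts, 9189, 6095 and 8186 CPM in deletion hearts, 12590, 5464 and 1919 CPM in HRC variant hearts and 2074, 1835 and 2413 CPM in compound hearts. HRC variant replicate 3 and all compound hearts were thus low in atrial transcripts. Of the defining atrial genes, Myl7 ran from 0.999 to 59.6 CPM in these 4 libraries and from 431 to 1349 CPM in the other 8. Libraries also differed in how their levels ran with transcript length: the rank correlation of a library's deviations with length was −0.50, 0.21 and 0.32 in nontransgenic, −0.38, −0.56 and 0.27 in deletion, −0.25, 0.55 and 0.17 in HRC variant and 0.40, 0.13 and 0.43 in compound hearts. Fewer cells of a type and less RNA per cell cannot be told apart in such tissue.

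**Figure D1:**
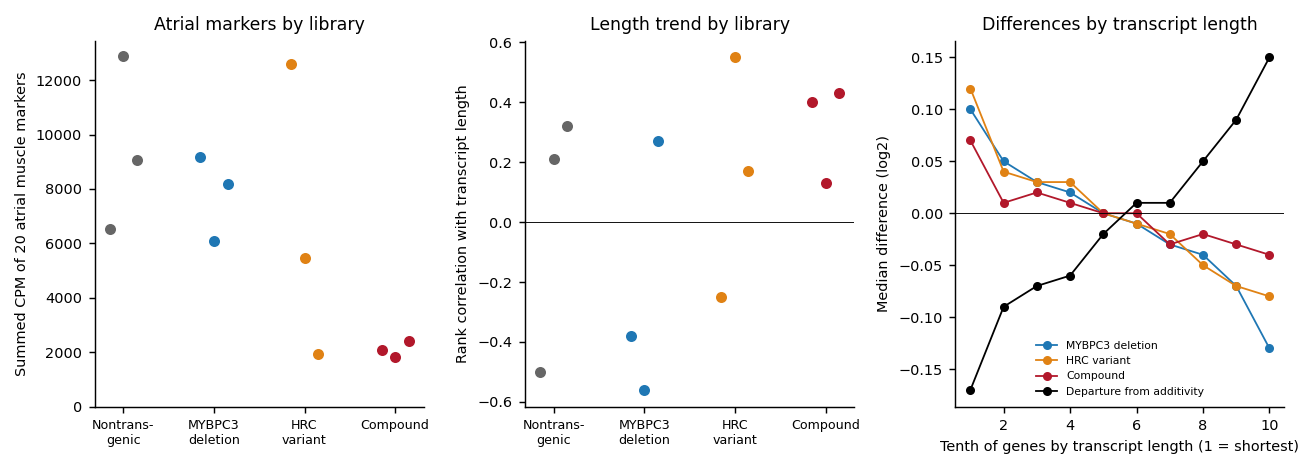
Left, summed CPM of 20 atrial muscle markers in each library; centre, rank correlation of each library's deviations with transcript length; right, median fitted log2 difference from nontransgenic hearts, and median departure from additivity, in 10 groups of genes by transcript length. Points on the left and in the centre are the 3 libraries of each group; the compound libraries sit between 1835 and 2413 CPM, and the median departure runs from −0.17 in the shortest genes to 0.15 in the longest.

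No gene departed from additivity after adjustment over all genes (0% of 13849; edgeR quasi-likelihood test, smallest adjusted p 0.16). At an unadjusted p under 0.05, 1183 genes (8.54%) departed, against 692 that the threshold alone would give. Of the 1183, 622 (4.49%) lay above the sum and 561 (4.05%) below it. With the atrial level as a further term, 595 (4.3%) lay above and 345 (2.49%) below at that p. With the length term these were 686 (4.95%) and 443 (3.2%). DESeq2, fitted with group and sex, called 50 of the 5790 genes to which it gave an adjusted p (0.864%), 46 above the sum (0.794%) and 4 below it (0.0691%). On linear CPM 1182 of the 1183 genes had the same sign. They were picked by the log2 departure from the same libraries, so this describes them and does not test the scale. Neither the single nor the compound differences gave a call with edgeR (0% for each); at an unadjusted p under 0.05 there were 1130 genes for the deletion (8.16%; 2.94% higher and 5.22% lower), 863 for the HRC variant (6.23%; 3.29% higher and 2.95% lower) and 881 for compound hearts (6.36%; 2.14% higher and 4.22% lower). At the edge of the threshold, Ehbp1l1 (departure 0.45) and Tbc1d5 (0.43) lay just inside and Xaf1 (−0.80) and Islr2 (−1.15) just outside.

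Rescue was the most frequent of the 4 forms among the 1183 genes. It took in 339 genes (28.7%; 10.2% of all genes tested), with 169 lower in both single mutants and 160 higher in both. In 107 of them both single differences passed the limit, in 116 that of the deletion alone and in 116 that of the HRC variant alone. Masking took in 125 genes (10.6%; 7% of all genes), excess 76 (6.4%; 7.52% of all genes) and reversal 55 (4.6%; 1.65% of all genes), and 588 had none of these forms (49.7%; 73.7% of all genes). Among these genes, compound hearts lay below nontransgenic hearts in 68 of 76 excess and 50 of 55 reversal genes, and in 41 of 125 masking genes. The same split over all genes with these forms was not counted. At an unadjusted p under 0.05 (edgeR) the compound difference was lower in 4.22% of all genes and higher in 2.14%. Excess took in 205 genes and reversal to 112 without HRC variant replicate 3; masking was 333 without nontransgenic replicate 3 and 53 without deletion replicate 3, and reversal 151 without the latter. The forms use the fitted differences that enter the departure itself, so these counts describe the genes and test nothing.

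**Figure D2:**
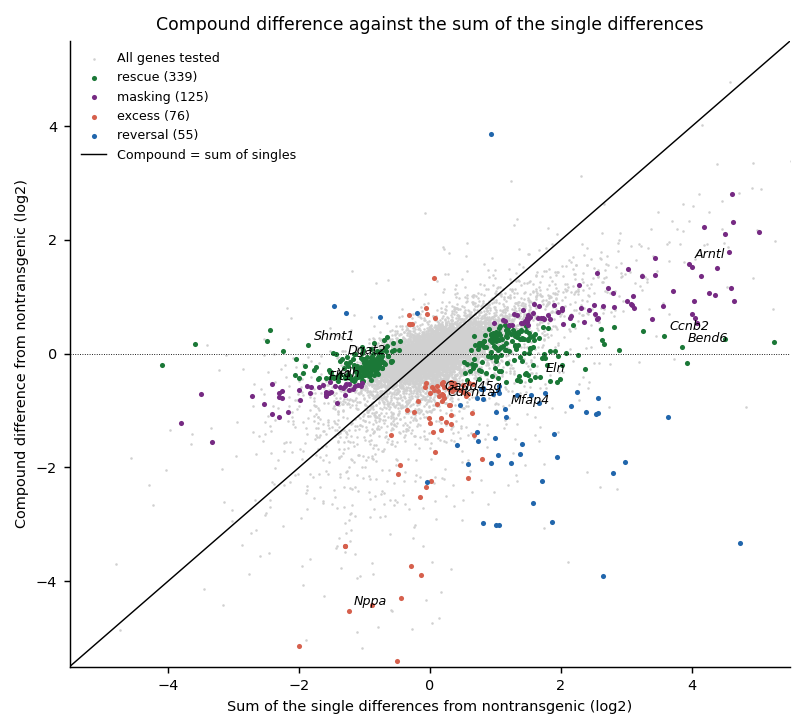
Fitted log2 difference of compound from nontransgenic hearts against the sum of the single differences, 1 point per gene (grey, all 13849 genes; coloured, genes with an unadjusted departure p under 0.05 by form). The solid line is additivity and the dotted line no compound difference; rescue genes (339) lie along the dotted line, masking genes (125) between both lines, and 43 genes fall outside the drawn range.

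Most genes called by DESeq2 had both single differences on the side opposite to the departure. Of the 46 that rose above the sum, 45 had both single differences below 0, and all 4 that fell below it had both single differences above 0. The genes were picked by the departure, which is computed from the single and compound differences. These signs, and the sizes, forms and library placings that follow, therefore describe the called genes and test nothing. The compound difference stayed under 0.25 in size in 42 of the 50 and under 0.5 in 48. By form, 27 were rescue, 2 masking, 21 none, and none was excess or reversal. In 10 of them all 6 single-mutant libraries lay below all 6 others, and in 1 above; over all genes tested this held for 22 genes (0.159%) and 25 genes (0.181%). Over all genes tested, the HRC variant libraries lay above all nontransgenic ones and the compound libraries below all deletion ones in 45 (0.325%). In 56 (0.404%) both were the other way round. The 50 genes called by DESeq2 had a median transcript length of 6283 bases against 3449 for all genes tested. Only the 5790 genes with a DESeq2 adjusted p could be called, and their median length was not taken. The count was 28 with the atrial level as a term, 12 of them among the 50, and 30 with the length trend as a term, 17 of them among the 50. Without 1 library it was 138 with HRC variant replicate 3 left out, 7, 14 and 30 with compound replicates 3, 1 and 2, 15 with deletion replicate 2, 29 with nontransgenic replicate 1, 30 with HRC variant replicate 1 and 34 to 48 with each of the others.

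Departures followed transcript length throughout. With genes split into 10 groups by length, 0.7% of the shortest group lay above the sum and 6.6% below it at an unadjusted p under 0.05; in the longest group, 12.7% lay above and 1.8% below. The median single differences of the shortest group were 0.10 for the deletion and 0.12 for the HRC variant, with 0.07 in compound hearts. In the longest group they were −0.13 and −0.08, with −0.04 in compound hearts. Across the 13674 genes with a length, the rank correlation with length was −0.23 for the deletion, −0.19 for the HRC variant and 0.23 for the departure, given as a description since genes are not independent. The part of the libraries' length trend in single genes' departures was not tested.

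In the rescue genes above the sum, levels were low in 1 or both single mutants and near nontransgenic in compound hearts. Shmt1 (chr11:60788886-60811265, GRCm38.p6), the cytosolic enzyme that moves a carbon unit from serine to folate, read 18.5, 11.7 and 9.06 CPM in nontransgenic, 7.39, 8.75 and 6.11 CPM in deletion, 5.89, 4.08 and 4.05 CPM in HRC variant and 11.3, 11.7 and 9.40 CPM in compound hearts. Every single-mutant library lay below every nontransgenic and compound library. The departure was 2.00 ± 0.32 (SE; edgeR adjusted p = 0.183), and adjusted p was 0.0285 without HRC variant replicate 1 and 0.0206 with the length term. Ahnak (chr19:8989121-9076935), a very large scaffold protein under the plasma membrane, read 318, 356 and 386 CPM in nontransgenic, 217, 192 and 306 CPM in deletion, 278, 312 and 234 CPM in HRC variant and 366, 355 and 424 CPM in compound hearts. Here too the 6 single-mutant libraries lay below the other 6, and the departure was 1.07 ± 0.21 (SE; edgeR adjusted p = 0.336; DESeq2 adjusted p = 0.00018). Ubr4, a giant ubiquitin ligase that reads protein N-termini, showed the loss mainly with the deletion: 112, 113 and 128 CPM there, 145 to 170.5 CPM in HRC variant hearts and 164 to 195 CPM across nontransgenic and compound hearts. Its departure was 0.78 ± 0.15 (SE; edgeR adjusted p = 0.336; DESeq2 adjusted p = 0.000155). Ephb3, a receptor for ephrin-B ligands, read 7.33, 7.87 and 10.8 CPM in deletion hearts against 12.4, 12.2 and 17.4 CPM in nontransgenic and 15.4, 17.1 and 19.7 CPM in compound hearts, with 11.1, 13.6 and 13.7 CPM in HRC variant hearts. Its departure was 1.14 ± 0.21 (SE; edgeR adjusted p = 0.336), while without the sex term its compound difference was 0.31.

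In other rescue genes the HRC variant group stood apart and compound hearts lay near nontransgenic hearts. Bend6 (chr1:33852052-33908141), a BEN domain repressor of Notch targets, had the smallest p of all genes. It read 1.91, 1.03 and 0.828 CPM in nontransgenic, 2.21, 2.66 and 2.39 CPM in deletion, 8.66, 9.21 and 4.55 CPM in HRC variant and 1.27, 0.786 and 1.29 CPM in compound hearts. All HRC variant libraries lay above all others, all deletion libraries came next, and compound and nontransgenic libraries overlapped. The departure was −3.73 ± 0.55 (SE; edgeR adjusted p = 0.16), and DESeq2 gave no adjusted p at this low level. Dgat2 (chr7:99153658-99182713), which makes triglyceride from diglyceride, read 523, 509.5 and 495.5 CPM in nontransgenic, 454, 399 and 497 CPM in deletion, 199, 223 and 287 CPM in HRC variant and 440.4, 425 and 619 CPM in compound hearts. The HRC variant hearts were low with no overlap, and the other groups overlapped. Its departure was 1.25 ± 0.25 (SE; edgeR adjusted p = 0.336; DESeq2 adjusted p = 0.000433). Oas2, an interferon-induced sensor of double-stranded RNA, was highest in HRC variant hearts at 10.7, 12.4 and 11.9 CPM, against 6.75, 8.98 and 7.10 CPM in compound hearts, with a departure of −1.05 ± 0.29 (SE; edgeR adjusted p = 0.508).

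Rescue downward included elastin. Eln (chr5:134702595-134747368), which encodes the core of elastic fibres, read 46.5, 53.0 and 44.4 CPM in nontransgenic, 112, 82.6 and 53.5 CPM in deletion, 93.99, 76.0 and 50.4 CPM in HRC variant and 37.5, 30.4 and 18.0 CPM in compound hearts. The compound libraries lay below all 9 others, and replicate 3 was the lowest of each single-mutant group, where it overlapped the nontransgenic range in the HRC variant. The departure was −2.10 ± 0.41 (SE; edgeR adjusted p = 0.351; DESeq2 adjusted p = 0.000155). It met the rule for rescue with sex as a term and that for reversal without it (compound difference −0.42 and −0.74). Dynll1, a dynein light chain, and Aspn, a small leucine-rich matrix protein, also fell below the sum with DESeq2, with fitted departures of −1.11 and −0.82 in edgeR.

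**Figure D3:**
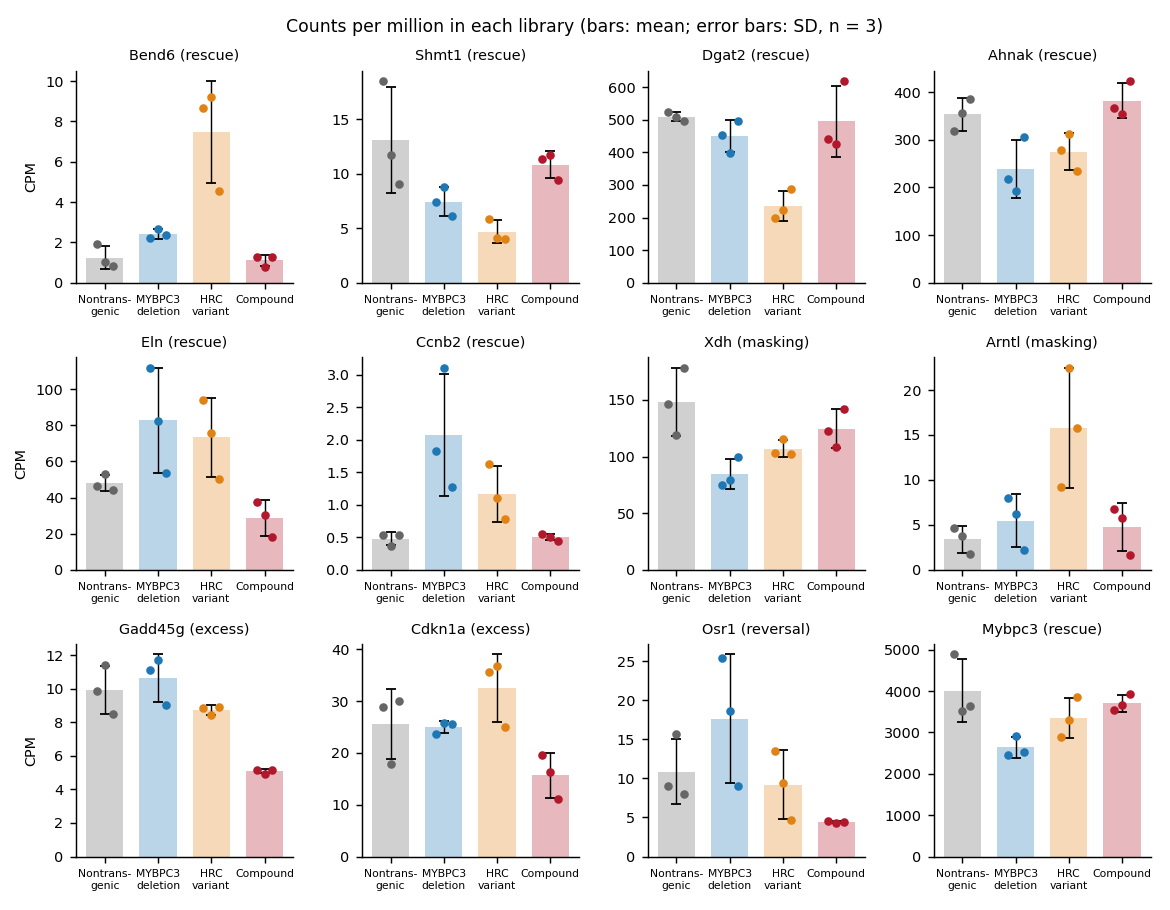
CPM of 12 genes in each library (points), with group means (bars) and SD (n = 3); the form of departure stands beside each name. In Bend6 the HRC variant libraries (4.55 to 9.21 CPM) stand above all others, in Dgat2 they stand below (199 to 287 CPM), and in Gadd45g the compound libraries stand below all others (4.94 to 5.15 CPM).

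The 6 masking genes with the smallest p all met the rule for rescue when sex was left out of the model. Their compound difference passed the limit only with the term. The term is estimated from the nontransgenic and deletion groups, each with 1 female library. Xdh, which breaks down purines to urate, read 147, 119 and 179 CPM in nontransgenic, 75.04, 78.9 and 99.4 CPM in deletion, 103, 115 and 102 CPM in HRC variant and 122.8, 108.5 and 142 CPM in compound hearts. Compound hearts overlapped both the nontransgenic and the HRC variant hearts, and deletion hearts were the lowest. The departure was 1.03 ± 0.18 (SE; edgeR adjusted p = 0.328; DESeq2 adjusted p = 0.000155), and the compound difference was −0.50 with the sex term and −0.25 without it. Flt1, a decoy-like VEGF receptor of endothelial cells, was lowest in deletion hearts at 54.6, 57.6 and 89.9 CPM, then 82.9, 103 and 101 CPM in HRC variant and 98.0, 97.8 and 115 CPM in compound hearts, against 137, 115 and 131 CPM in nontransgenic hearts. Its departure was 1.08 ± 0.21 (SE; edgeR adjusted p = 0.336; DESeq2 adjusted p = 0.00177), with a compound difference of −0.56, or −0.30 without the sex term. Wnk2, a WNK family kinase, had a departure of 0.83 ± 0.23 (SE; edgeR adjusted p = 0.508). Zfp932, a zinc finger gene of a family with close copies whose reads may be shared, and Llph lay below the sum at −1.79 and −0.89.

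In the excess genes compound hearts stood apart and no single difference passed the limit against them. Gadd45g, a growth arrest gene induced by stress, read 9.89, 11.4 and 8.52 CPM in nontransgenic, 11.1, 11.7 and 9.03 CPM in deletion, 8.86, 8.42 and 8.93 CPM in HRC variant and 5.14, 4.94 and 5.15 CPM in compound hearts. The 3 compound libraries lay below the other 9, with an SD of 0.118 CPM. Such a placing of the compound libraries was found in 178 genes (1.29%) below the others and in 164 (1.18%) above them. The departure of Gadd45g was −0.88 ± 0.22 (SE; edgeR adjusted p = 0.508). Ripor2, an inhibitor of the small GTPase RhoA, lay the other way, at 13.9, 12.9 and 14.4 CPM in compound hearts against 5.74 to 9.89 CPM in the other 9, with a departure of 1.00 ± 0.27 (SE; edgeR adjusted p = 0.508). Cdkn1a, the cell cycle inhibitor p21, read 19.6, 16.4 and 11.1 CPM in compound hearts and 17.8 to 36.8 CPM elsewhere, so that compound replicate 1 overlapped nontransgenic replicate 2. Its departure was −1.03 ± 0.32 (SE; edgeR adjusted p = 0.524). Pmepa1, a TGF-beta target that dampens the same pathway, read 53.6 to 62.9 CPM in compound and 76.5 to 111 CPM in all other hearts, with a departure of −0.69 ± 0.21 (SE; edgeR adjusted p = 0.516). Olfr1033, an olfactory receptor gene, lay at 13.0 to 15.9 CPM in compound hearts against 17.5 to 38.3 CPM elsewhere. Adamts19, a secreted metalloprotease, lay at 0.503 to 0.954 CPM in compound hearts and varied from 1.05 to 6.58 CPM within the HRC variant group; without the sex term its HRC variant difference was 0.95 and its compound difference −1.34, which met the rule for reversal.

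The named reversal genes included genes of connective tissue and matrix. Osr1, a transcription factor of connective tissue cells, read 9.05, 15.61 and 7.94 CPM in nontransgenic, 25.3, 18.6 and 9.03 CPM in deletion, 13.5, 9.37 and 4.66 CPM in HRC variant and 4.53, 4.32 and 4.42 CPM in compound hearts. Replicate 3 was the lowest library of each other group, and compound hearts lay below all 9. The departure was −1.67 ± 0.47 (SE; edgeR adjusted p = 0.508). Postn, a matrix protein of activated fibroblasts, read 110.3, 75.9 and 80.4 CPM in deletion hearts against 50.8, 50.7 and 69.6 CPM in nontransgenic hearts. It read 105, 53.5 and 39.9 CPM in HRC variant and 37.8, 38.0 and 41.9 CPM in compound hearts, with a departure of −1.40 ± 0.43 (SE; edgeR adjusted p = 0.524). Mfap4, an elastic microfibril protein, read 97.6, 88.5 and 95.5 CPM in deletion hearts, 52.0, 44.3 and 64.2 CPM in nontransgenic hearts and 37.3, 24.5 and 28.4 CPM in compound hearts. Its HRC variant values of 140, 54.5 and 27.5 CPM ran from within the compound range to above every other library, and the departure was −2.12 ± 0.70 (SE; edgeR adjusted p = 0.563). With the atrial level as a term the departures of Mfap4 and Postn were −1.14 and −0.88. Nr4a3, an immediate early nuclear receptor, read 1.55, 1.01 and 2.18 CPM in compound hearts and 2.13 to 8.99 CPM elsewhere; it met the rule for excess without the sex term. Pi15 and Cdh23 met that for rescue without it.

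The altered genes themselves were measured by total counts, which a short deletion or a point variant need not alter, so they do not check the genotypes. Mybpc3 (chr2:91118022-91136573) read 4885, 3521 and 3630 CPM in nontransgenic, 2464, 2918 and 2532 CPM in deletion, 2897, 3297 and 3848 CPM in HRC variant and 3532, 3658 and 3923 CPM in compound hearts. Deletion hearts had the lowest mean, though their replicate 2 lay above HRC variant replicate 1. Compound hearts, which are homozygous for the same deletion, lay within the nontransgenic range. The departure was 0.75 ± 0.23 (SE; edgeR adjusted p = 0.517; DESeq2 adjusted p = 0.0489), a rescue by the rule. Hrc (chr7:45335269-45338973) averaged 1129 ± 223.5 CPM in nontransgenic, 1082 ± 112 CPM in deletion, 1162 ± 189.8 CPM in HRC variant and 1185 ± 38.8 CPM in compound hearts (SD, n = 3 each). All groups overlapped, and the departure was 0.09 ± 0.24 (SE; edgeR adjusted p = 0.935), with its sign turned when library totals were used for scaling (−0.01).

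Most sarcomere genes lay above the sum. Of 30 measured, 25 had a positive departure (48.4% of all genes did), 6 at an unadjusted p under 0.05 (4.49% of all genes), none below 0 at that p, and 3 rose with DESeq2 (Mybpc3, Myh6 and Myom2). The median departure was 0.23, against −0.01 over all genes, made of −0.18 for the deletion, −0.07 for the HRC variant and 0.00 for compound hearts. With the atrial level as a term 21 of the 30 were positive and the median was 0.12. Without nontransgenic replicate 1 these were 20 and 0.18, with 1 gene below the sum at an unadjusted p under 0.05. Myh6, the main myosin heavy chain of the adult mouse heart, read 18527, 18522 and 21464 CPM in deletion hearts and 22766 to 29686 CPM in the other 9 libraries, without overlap. Its departure was 0.64 ± 0.21 (SE; edgeR adjusted p = 0.544; DESeq2 adjusted p = 0.0167). Myom2, an M-band protein, read 806, 619.5 and 723 CPM in deletion hearts, 887 to 1014 CPM in nontransgenic hearts, 848 to 1196 CPM in HRC variant hearts and 1189 to 1343 CPM in compound hearts. Its departure was 0.74 ± 0.22 (SE; edgeR adjusted p = 0.516; DESeq2 adjusted p = 0.0481). Flnc, the actin crosslinker of the Z-disc, read 229, 238 and 255 CPM in deletion and 308 to 340.0 CPM in compound hearts, and Obsl1 had a departure of 0.55 ± 0.16 (SE; edgeR adjusted p = 0.508). Of the stress markers, Myh7 (0.10 ± 1.00), Acta1 (0.26 ± 0.77) and Ankrd1 (−0.23 ± 0.26) had standard errors as large as their departures or larger, and each changed sign under some setting.

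Calcium handling genes, the system to which HRC belongs, showed little departure as a group. Of 27 tested, 17 were above the sum and 10 below, with a median of 0.08. At an unadjusted p under 0.05 there was 1 each way (4.49% and 4.05% of all genes), and none was called by edgeR or DESeq2. The pump gene Atp2a2 (SERCA2) had a departure of 0.52 ± 0.29, the release channel Ryr2 0.47 ± 0.29, the calcium buffer Casq2 0.21 ± 0.22 and the pump inhibitor Pln 0.08 ± 0.24 (SE; edgeR adjusted p = 0.651, 0.675, 0.802 and 0.943). Pln changed sign when library totals were used for scaling. Itpr1, the inositol trisphosphate receptor, lay above the sum by 0.52 ± 0.23, and Calm2, a calmodulin gene, below it by −0.46 ± 0.17 (SE; edgeR adjusted p = 0.575 and 0.563). Among 30 ion channel genes, 20 lay above the sum and 3 did so at an unadjusted p under 0.05 (4.49% of all genes). The count was 7 with the atrial term, 5 without nontransgenic replicate 1, HRC variant replicate 1 or HRC variant replicate 3, and 1 without the sex term, where 1 gene also lay below the sum. One of these was Kcnj12, an inward rectifier potassium channel, at 0.87 ± 0.27, and another was the pacemaker channel Hcn2 at 0.72 ± 0.25 (SE; edgeR adjusted p = 0.517 and 0.563).

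Fuel genes also lay above the sum. All 25 genes of fatty acid oxidation and PPAR targets had a positive departure, with a median of 0.32. The medians were −0.06 for the deletion, 0.05 for the HRC variant and 0.29 for compound hearts. At an unadjusted p under 0.05 there were 3 (4.49% of all genes). That count was 0 without nontransgenic or deletion replicate 3 (3.88% and 3.92% of all genes) and 7 without HRC variant replicate 3 (5.47%). It was 9 without nontransgenic replicate 2 (4.94%) and 1 without nontransgenic replicate 1 and deletion replicate 2 together (3.14%). With the atrial level as a term, 20 of 25 were positive and the median was 0.13. Ucp3, a mitochondrial carrier induced by PPAR ligands, read 143, 104.5 and 61.9 CPM in compound hearts, with 29.3 to 87.7 CPM in the other 9, so that replicate 3 overlapped them. Its departure was 1.28 ± 0.45 (SE; edgeR adjusted p = 0.563). Cpt1b, the gate of fatty acid entry into mitochondria, had a departure of 0.48 ± 0.22 (SE; edgeR adjusted p = 0.583). Of 23 genes of triglyceride turnover 16 were above the sum, 4 at an unadjusted p under 0.05 (4.49% of all genes), with Dgat2 called by DESeq2. The 4 became 1 without nontransgenic replicate 3, deletion replicate 3, HRC variant replicate 2 or compound replicate 1, and 2 without nontransgenic replicate 1, deletion replicate 2, compound replicate 2 or the sex term. The other members at that p were the lipase genes Pnpla2 (0.46 ± 0.20) and Lipe (0.70 ± 0.32) and the acyltransferase Agpat2 (0.32 ± 0.15). Of 30 genes of glucose use 26 were above the sum, with a median of 0.25 and 2 at an unadjusted p under 0.05 (4.49% of all genes). They numbered 8 without nontransgenic replicate 2 (4.94% of all genes), 6 without HRC variant replicate 3 (5.47%) and 5 with the length term (4.95%). Glycogen synthase Gys1 stood at 0.71 ± 0.21 and Pfkfb1, which sets fructose bisphosphate levels, at 0.87 ± 0.31. Nuclear genes of oxidative phosphorylation had a median departure of 0.02, with 23 of 42 above the sum, but this list shifted with the setting: 39 of 42 were above it with the length term (median 0.23), 36 without nontransgenic replicate 2 (0.24), 36 without deletion replicate 2 (0.16), 11 without nontransgenic replicate 1 (−0.17) and 10 with the atrial term (−0.10).

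The circadian clock genes had their largest median difference, −0.57, in HRC variant hearts. Their summed level was 1743, 1283 and 1269 CPM in HRC variant and 1648, 1694 and 1953 CPM in nontransgenic hearts. HRC variant replicate 1 thus lay within the nontransgenic range, and replicates 2 and 3 lay below it. BMAL1, encoded by Arntl, pairs with CLOCK or NPAS2 and switches on genes through the E-box CACGTG. PER and CRY proteins repress that pair, REV-ERB and ROR proteins bind elements holding AGGTCA, and DBP, TEF and HLF bind the D-box TTATGTAA. Arntl, Tef and Bhlhe41, of the clock genes with an unadjusted departure p under 0.05, carry 1 of these elements in a RefSeq promoter entry (Tef in both of its entries, of which 1 is printed), and these are shown so that the element can be read beside the values. Each runs 5′ to 3′ on the gene's own strand from 250 bases before to 50 after the start, GRCm38.p6, with the element in capitals: Arntl chr7:113207261-113207560 (plus strand), Tef chr15:81802423-81802722 (plus strand) and Bhlhe41 chr6:145865371-145865670 (minus strand).
Arntl: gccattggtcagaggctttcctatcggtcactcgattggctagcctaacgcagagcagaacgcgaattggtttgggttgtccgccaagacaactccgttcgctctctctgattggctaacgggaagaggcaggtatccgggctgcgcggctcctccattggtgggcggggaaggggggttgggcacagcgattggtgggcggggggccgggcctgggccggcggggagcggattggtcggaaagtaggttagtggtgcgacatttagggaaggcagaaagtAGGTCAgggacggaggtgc
Tef: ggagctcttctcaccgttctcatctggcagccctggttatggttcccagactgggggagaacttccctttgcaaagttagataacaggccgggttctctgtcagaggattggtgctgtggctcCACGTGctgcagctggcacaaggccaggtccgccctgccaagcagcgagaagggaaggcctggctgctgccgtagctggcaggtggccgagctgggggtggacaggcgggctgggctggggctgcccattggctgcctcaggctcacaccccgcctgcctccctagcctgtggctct
Bhlhe41: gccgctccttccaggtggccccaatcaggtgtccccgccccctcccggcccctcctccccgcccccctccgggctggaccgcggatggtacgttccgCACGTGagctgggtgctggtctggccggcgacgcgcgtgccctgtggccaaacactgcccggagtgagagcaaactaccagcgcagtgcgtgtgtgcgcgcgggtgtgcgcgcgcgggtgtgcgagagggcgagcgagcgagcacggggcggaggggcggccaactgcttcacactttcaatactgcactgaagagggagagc
Promoter entries were found for 17 of the 20 clock genes, and the entries of 5 genes held the E-box, 1 the D-box and 5 AGGTCA, on either strand and counted separately where they overlapped. Of all 32851 promoter entries of the same length, 7.2% held the E-box, 0.9% the D-box and 16.3% AGGTCA. These shares count entries, while the clock counts are of genes, which had 22 entries between them, so they are not directly comparable. The Arntl entry that is not printed held none of these elements. A match is a description of letters and not a bound site.

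Arntl (chr7:113178470-113314126) read 4.65, 3.70 and 1.75 CPM in nontransgenic, 8.02, 6.15 and 2.23 CPM in deletion, 9.15, 22.5 and 15.8 CPM in HRC variant and 6.75, 5.78 and 1.68 CPM in compound hearts. The HRC variant libraries were above all others, and replicate 3 was the lowest in the nontransgenic, deletion and compound groups. Replicate 3 was the only female library of the nontransgenic and deletion groups, while all compound libraries were female. The departure was −2.38 ± 0.62 (SE; edgeR adjusted p = 0.508); the compound difference was 1.58 with the sex term, which made it masking, and 0.50 without it. Tef, whose entry above holds an E-box, read 147, 131 and 136 CPM in HRC variant hearts against 146 to 296 CPM in nontransgenic and 170 to 309 CPM in compound hearts, with a departure of 1.02 ± 0.30 (SE; edgeR adjusted p = 0.516). Bhlhe41, a repressor of E-box genes, read 47.1, 36.9 and 29.5 CPM in HRC variant and 56.9, 64.1 and 60.2 CPM in compound hearts, with a departure of 0.73 ± 0.26 (SE; edgeR adjusted p = 0.563). Cry2 lay at 42.6 to 45.0 CPM in HRC variant hearts and 55.4 to 60.5 CPM in compound hearts, and it was also low in deletion replicates 1 and 2 (38.2 and 31.7 CPM). Its departure was 0.81 ± 0.15 (SE; edgeR adjusted p = 0.336; DESeq2 adjusted p = 0.00018). Of the 20 clock genes 14 lay above the sum and 6 below. At an unadjusted p under 0.05, 3 were above it and 1 below (4.49% and 4.05% of all genes). Those above numbered 10 with the atrial level as a term and 9 without HRC variant replicate 1 (4.3% and 3.85% of all genes). The median departure was 0.38, with −0.04 for the deletion, −0.57 for the HRC variant and −0.16 for compound hearts. These differences hold the sex term, and the HRC variant difference of Cry2 was −0.55 with it and −0.27 without it. The labels used here give no hour of collection.

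Matrix genes lay below the sum. Collagens, elastic fibre proteins and their modifiers form the scaffold that cardiac fibroblasts secrete. Of 45 tested, 41 had a negative departure, and 13 did so at an unadjusted p under 0.05 (4.05% of all genes), with none above the sum at that p; Eln alone fell with DESeq2. The median departure was −0.59, made of 0.13 for the deletion, 0.09 for the HRC variant and −0.42 for compound hearts. Of the 13, 2 were rescue, 3 excess, 3 reversal and the others none. Col1a1, the chain of the most abundant fibrillar collagen, read 245, 268 and 262 CPM in nontransgenic, 265.5, 344 and 293 CPM in deletion, 420.3, 204 and 176.5 CPM in HRC variant and 205, 186 and 144 CPM in compound hearts, with a departure of −0.80 ± 0.39 (SE; edgeR adjusted p = 0.606). Compound hearts overlapped HRC variant replicates 2 and 3 and lay below all other libraries. Col3a1, the chain of the finer fibrils, had a departure of −0.90 ± 0.37, and Cilp, a matrix protein of stressed heart, −2.05 ± 0.83 (SE; edgeR adjusted p = 0.568 and 0.571).

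The matrix result rested in part on HRC variant replicate 1. The 45 genes summed to 9506, 6027 and 5231 CPM in the HRC variant libraries, 6331, 6628 and 6907 CPM in nontransgenic, 7127, 7836 and 7599 CPM in deletion and 5714, 5363 and 4921 CPM in compound libraries. Without HRC variant replicate 1 the median was −0.23 with 4 genes below the sum at an unadjusted p under 0.05. Without HRC variant replicate 3 it was −0.73 with 24. The count was also 4 without deletion replicate 2, 5 and 6 without compound replicates 3 and 2, and 8 and 6 without nontransgenic replicates 1 and 2. With the atrial level as a term it was −0.32 with 4, with the length term −0.35 with 2, and without nontransgenic replicate 1 and deletion replicate 2 together −0.54 with 3. Fibroblast markers went the same way: 9 of 10 lay below the sum, 3 at an unadjusted p under 0.05 (4.05% of all genes). Their summed level was 2876 to 6838 CPM in HRC variant hearts, 2883 to 3389 CPM in compound hearts and 4033 to 4773 CPM in the other 2 groups. The 3 became 7 without HRC variant replicate 3, 1 without HRC variant replicate 1, nontransgenic replicate 1 or 2, deletion replicate 1 or compound replicate 3, and 0 without deletion replicate 2, with the atrial term and with the length term. Their part in the matrix result was not tested.

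**Figure D4:**
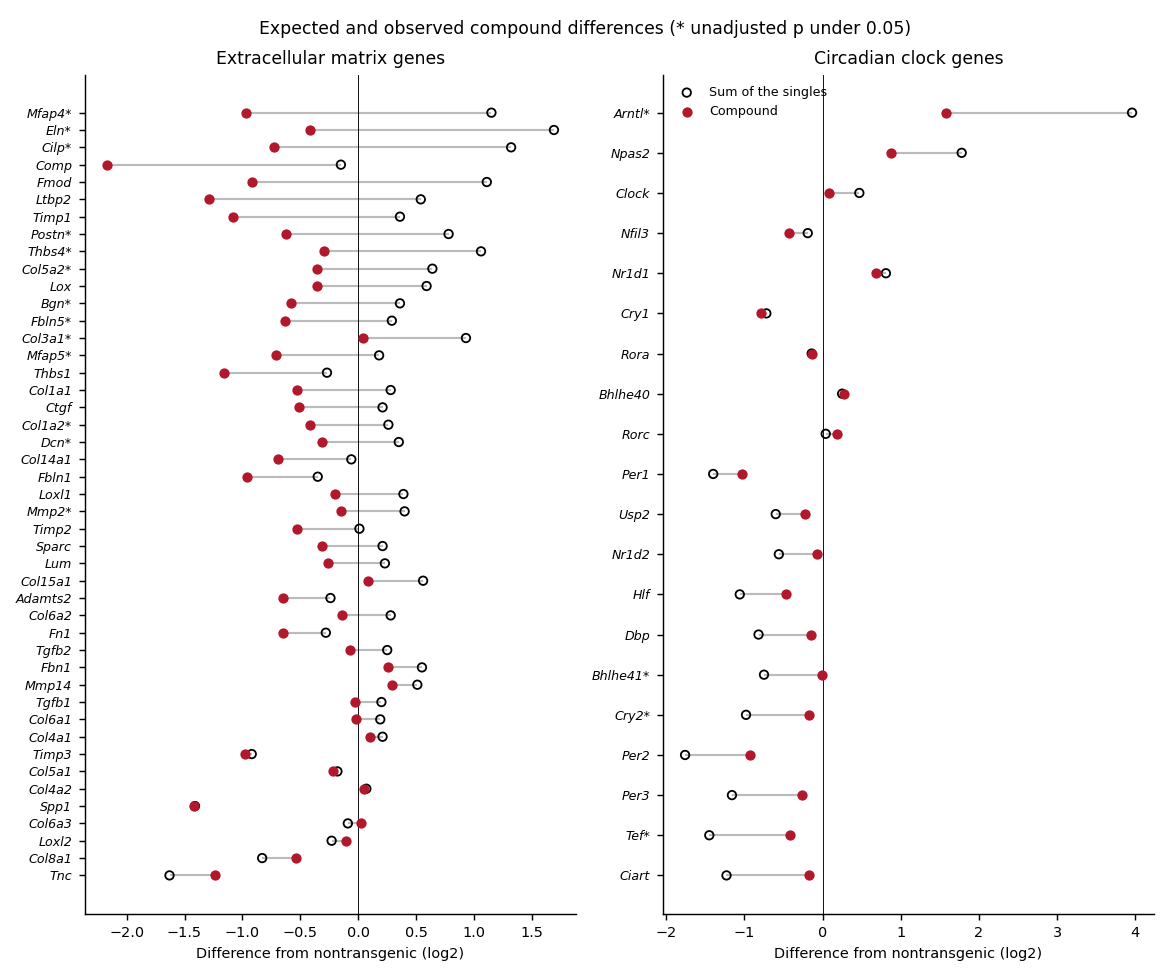
Sum of the single log2 differences from nontransgenic hearts (open circles) and fitted compound difference (filled circles) for 45 extracellular matrix genes (left) and 20 circadian clock genes (right), ordered by departure; asterisks mark an unadjusted departure p under 0.05. For 41 of the 45 matrix genes the compound heart lies left of the sum, and for 14 of the 20 clock genes it lies right of it.

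Cell cycle genes also lay below the sum. Of 30 tested, 26 had a negative departure, 6 at an unadjusted p under 0.05 (4.05% of all genes), with a median of −0.65 made of 0.43 for the deletion, 0.55 for the HRC variant and 0.35 for compound hearts. Ccnb2, the mitotic cyclin B2, read 0.536, 0.360 and 0.536 CPM in nontransgenic, 1.83, 3.11 and 1.28 CPM in deletion, 1.63, 1.10 and 0.777 CPM in HRC variant and 0.553, 0.505 and 0.447 CPM in compound hearts. All 6 single-mutant libraries were above the other 6, at levels near or below 3 CPM, with a departure of −3.26 ± 0.74 (SE; edgeR adjusted p = 0.508). The summed level of the list was 205, 243 and 181 CPM in nontransgenic, 214, 297 and 220.2 CPM in deletion, 239.6 to 249.8 CPM in HRC variant and 234 to 253 CPM in compound hearts, so that deletion replicate 2 alone stood above the rest. That library and nontransgenic replicate 2 were also high in B-cell markers (86.8 and 49.9 CPM, against 4.42 to 11.9 CPM in the other 10), T-cell markers (11.1 and 7.499 CPM against 2.05 to 5.74 CPM) and Schwann cell and nerve markers (149.7 and 109 CPM against 35.4 to 71.9 CPM). The part of these cells in the cell cycle result was not tested. Prc1, which bundles microtubules in dividing cells, had a departure of −2.20 ± 0.73 (SE; edgeR adjusted p = 0.545). Without deletion replicate 1, 11 genes lay below the sum at that p. The list's median moved to −0.33 with 1 gene below the sum at an unadjusted p under 0.05 without deletion replicate 2, to −1.15 with 8 without nontransgenic replicate 2, and to −0.22 with 2 without nontransgenic replicate 1 and deletion replicate 2 together.

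Cytosolic ribosomal protein genes, short and abundant, were below the sum in 35 of 36 with a narrow spread (quartiles −0.25 and −0.16), none at an unadjusted p under 0.05. Their summed level followed the libraries' length trend: it was 14528 and 15748 CPM in nontransgenic replicate 1 and deletion replicate 2, the libraries with the strongest tilt to short genes, and 9441 to 12547 CPM in the other 10. The median was 0.07 with the length term and −0.20 without it. Antigen presentation genes were below the sum in 17 of 19, with a median of −0.64 (0.31 for the deletion, 1.05 for the HRC variant and 0.83 for compound hearts) and none at an unadjusted p under 0.05. Without compound replicate 2 all 19 lay below the sum, 12 of them at that p (median −0.93), and without deletion replicate 1 there were 4 at that p. Summed levels of the antigen presentation list were 1729, 1528 and 886 CPM in nontransgenic and 1481, 2481 and 1287 CPM in deletion hearts. They were 2435, 1400 and 1524 CPM in HRC variant and 1040, 2157 and 1151 CPM in compound hearts. All groups thus overlapped, while the fitted differences hold the sex term and the female nontransgenic replicate 3 was the lowest library. Members of the H2 family are near-identical in sequence, so their reads may be shared. Of 32 interferon response genes 20 lay below the sum, with a median of −0.21.

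The atrial markers had the most negative median of the lists with at least 5 tested genes, at −1.56. Of the 20, 17 lay below the sum, 1 of them at an unadjusted p under 0.05 (4.05% of all genes). That gene was Nppa, the atrial natriuretic peptide, which read 2026, 4889 and 3595 CPM in nontransgenic, 3652, 1474 and 3095 CPM in deletion, 4465, 1501 and 190.0 CPM in HRC variant and 107.5, 133 and 254 CPM in compound hearts. HRC variant replicate 3 lay in the compound range, and the departure was −3.28 ± 1.40 (SE; edgeR adjusted p = 0.583). Without that library 11 of the 20 atrial markers lay below the sum at an unadjusted p under 0.05, and with the atrial level as a term the median was 0.03, as that term is made from these genes. Nppb, the ventricular peptide, had a departure of −1.19 ± 0.52 (SE; edgeR adjusted p = 0.582). Its HRC variant values of 241, 247.5 and 383.5 CPM were above the compound values of 87.0, 146 and 126 CPM, and deletion hearts spanned 86.6 to 358 CPM. Ventricular markers had a median of 0.21, with 7 of 10 above the sum.

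Markers of other cell types differed in direction. All 10 epicardial and mesothelial markers were below the sum, with a median of −0.71 (−0.04 with the atrial term). Of these, 2 reached an unadjusted p under 0.05 (Upk1b and Krt19, against 4.05% of all genes). None did so with the atrial term, with the length term or without the sex term, and 4 did so without HRC variant replicate 3. All 10 Schwann cell and nerve markers were also below the sum, with a median of −0.72 and none at that p. Epicardial markers summed to 36.8 CPM in HRC variant replicate 3 and 31.1 to 64.5 CPM in compound hearts, against 71.8 to 161 CPM in the other 8 libraries, the same 4 libraries that were low in atrial transcripts. Macrophage markers had a median of −0.39 with 12 of 15 below the sum, and B-cell markers of −0.93 with 6 of 7 below it. Endothelial markers had a median of 0.06 with 10 of 15 above, and there Flt1 and Kdr, both VEGF receptors, lay above the sum at an unadjusted p under 0.05. Smooth muscle and pericyte markers had a median of −0.21 with a wide spread (quartiles −1.76 and 0.11), and Notch3 alone lay above the sum at that p, by 0.48 ± 0.15 (SE; edgeR adjusted p = 0.517).

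**Figure D5:**
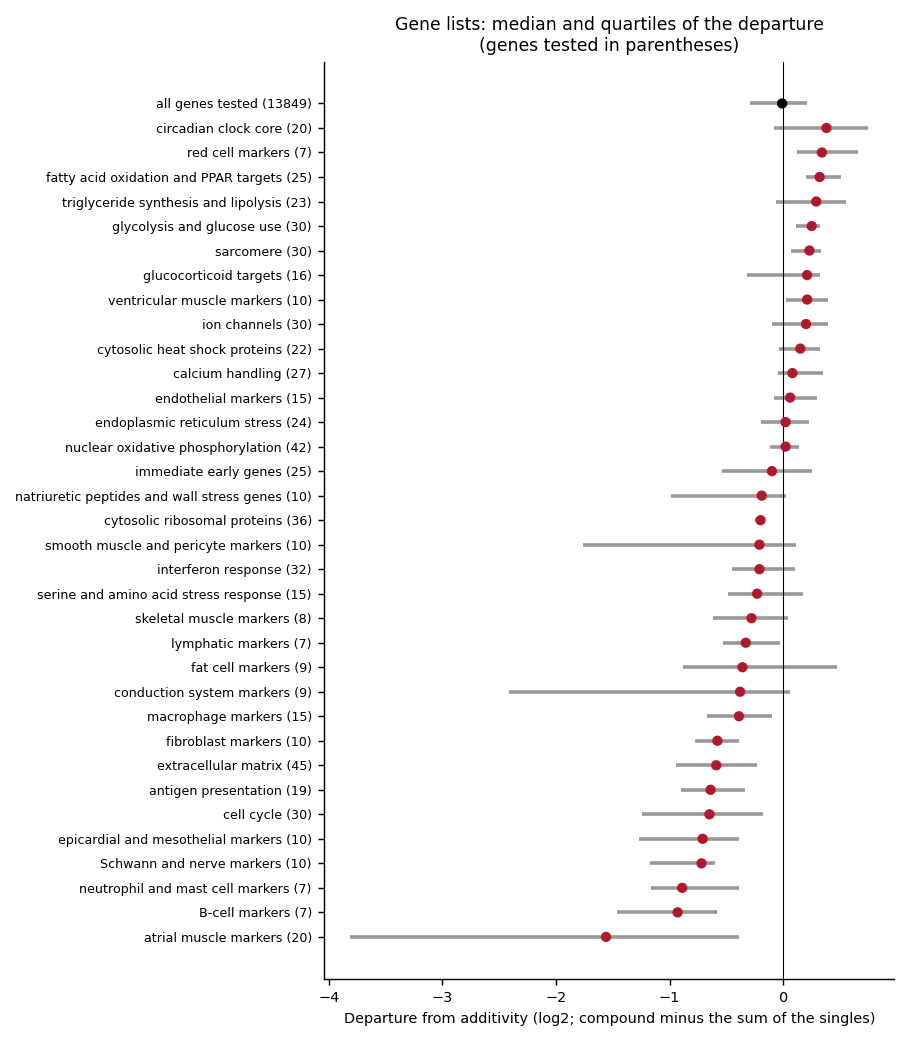
Median departure from additivity (points) and quartiles (bars) of each gene list with at least 5 tested genes, on the log2 scale, with all 13849 genes in black at the top. The atrial markers lie lowest (−1.56), matrix genes lie at −0.59, and the clock, fuel and sarcomere lists lie above 0.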

How the data were processed

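Messenger RNA of 12 mouse hearts was sequenced after oligo(dT) enrichment, per the labels' protocols. The authors deposited expected counts per gene and library, of which 94.3% were whole. HISAT, Bowtie2, DESeq2 and GRCm38.p6 appear in the submitters' processing notes; the counting tool and the gene annotation are not named in the sources read. The authors' log2 fold changes and q-values in the deposited table were not used here. From 17380 lines 1 without values was dropped, leaving 17379 genes, of which 25 symbols turned into dates were restored by identifier (17267 identifiers matched RefSeq). Mitochondrially encoded genes were not analysed here.

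Counts were rounded and fitted in edgeR 4.0.16 (R 4.3.3; TMM; minimum count 10, which removed 3530 genes; robust quasi-likelihood; group and sex; 7 residual degrees of freedom; biological coefficient of variation 21.5%), with Benjamini-Hochberg adjustment over 13849 genes and a threshold of 0.05. Standard errors are the fitted difference divided by the root of the test's F. An additive sex effect is the same in each group in this model and drops out of the departure. A deletion effect that differs by sex would not drop out and cannot be told apart from a departure here. The HRC variant and compound groups held females only. The additive effect does not drop out of the HRC variant and compound differences from nontransgenic hearts. For these it is estimated from the nontransgenic and deletion groups, each with 1 female library. For the same reason, leaving out the female replicate 3 of either the nontransgenic or the deletion group lets the sex term absorb the other one, so both drop out of the departure and the 2 settings give the same values. DESeq2 1.42.0 and limma 3.58.1 (voom) were alternatives. In data simulated for this contrast over 13682 genes, edgeR recovered 21% of 2-fold and 75% of 4-fold departures with 2 unchanged genes called, and DESeq2 39% and 88% with 26. Transcript lengths are from GENCODE M21 and promoters from RefSeq. Intervals and errors cover the spread between these 12 libraries.

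The members, lists and forms were chosen with earlier results of these data known. Genes are named by rule: the altered genes, the 6 smallest departure p per form among genes of at least 1 mean log2 CPM (unadjusted p under 0.05; predicted and sex-linked genes left out), up to 2 per list, and 10 heart markers; genes given beyond these, mostly other list members, were chosen after their values were seen. Alternatives were other tools, scalings, filters, terms, females alone and leaving out libraries.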

Additional observations from a re-analysis of the deposited data

Results flagged for a closer look

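In 9 named genes the HRC variant went one way without the deletion and the other way with it in every library: all 3 HRC variant libraries lay on one side of all 3 nontransgenic libraries, and all 3 compound libraries lay on the opposite side of all 3 deletion libraries. Over all 13849 genes tested 45 (0.325%) had the first of the patterns below and 56 (0.404%) the second, and these 9 are among genes named largely for a small departure p, so their number is no measure of how common the pattern is. The difference between the settings is the departure itself, and edgeR called none of them. In 3 genes the variant libraries were the higher ones without the deletion and the lower ones with it: Bend6 (departure −3.73, edgeR adjusted p = 0.16), Ccnb2 (−3.26, edgeR adjusted p = 0.508) and Zfp932 (−1.79, edgeR adjusted p = 0.508). In 6 genes it was the other way round: Shmt1 (2.00, edgeR adjusted p = 0.183), Flt1 (1.08, edgeR adjusted p = 0.336), Ahnak (1.07, edgeR adjusted p = 0.336), Xdh (1.03, edgeR adjusted p = 0.328), Cry2 (0.81, edgeR adjusted p = 0.336) and Hcn2 (0.72, edgeR adjusted p = 0.563). Cry2, Flt1, Ahnak and Xdh were also called by DESeq2.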

How the results depend on the processing

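With edgeR the count of genes called was 0 in the fit with group and sex, 1 with the length term, 1 with the replicate block, 14 with the likelihood ratio test and 0 to 5 when 1 library was left out (5 without HRC variant replicate 1). DESeq2 called 50, with 28 under the atrial term, 30 under the length term and 7 to 138 when 1 library was left out. Genes at an unadjusted p under 0.05 numbered 486 in females alone, with sex no term, and 775 (compound replicate 1) to 1555 (HRC variant replicate 3) without 1 library, with 782 without deletion replicate 2. Over 18 pairs of libraries with the same replicate number the correlations ran from −0.48 to 0.49, and 6 were over 0.1. With 3 libraries a group these values cannot show whether replicate numbers pair the samples, and this was not tested. Under the replicate block masking took in 83 genes, and the gene called was Eln (adjusted p = 0.0494).

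Rescue took in 200 genes in females alone and 106 at a limit of 1. Masking took in 44 without the sex term, 78 with the length term, 36 at a limit of 1 and 53 to 333 without 1 library. Excess took in 8 in females alone, 24 with the length term, 28 without nontransgenic replicate 1 and deletion replicate 2, 50 at a limit of 1 and 20 to 205 without 1 library. For reversal these were 9, 30, 26, 15 and 27 to 151. Libraries other than those named above that moved a form by over 1.5 times were, for masking, deletion replicate 2 (80) and compound replicates 1, 2 and 3 (76, 79 and 83), for excess, nontransgenic replicates 1 and 3 (42 and 20), deletion replicate 1 (41), HRC variant replicate 1 (29) and compound replicate 2 (41), and for reversal, nontransgenic replicates 1, 2 and 3 (31, 86 and 35) and HRC variant replicate 1 (27). The causes of these shifts were not tested.

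Of 63 named genes, 58 kept the sign of their departure in up to 27 settings. Hrc turned to −0.01 with library totals, −0.07 with the atrial term and −0.14 without nontransgenic replicate 1 and deletion replicate 2, Pln to −0.00, −0.05 and −0.00 in the same settings and −0.03 with the length term. Myh7 turned to −0.01 with library totals, and Ankrd1 to 0.10 in females alone and 0.03 without that pair. Without 1 library Hrc ran from −0.08 to 0.24, Pln from −0.10 to 0.25, Myh7 from −0.98 to 0.76, Acta1 from −0.44 to 0.91 and Ankrd1 from −0.40 to 0.02.

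Of 34 lists, 14 kept the sign of their median in 21 settings. With the atrial term the medians were 0.03 for atrial markers, −0.01 for ventricular markers, 0.06 for serine and amino acid stress genes, −0.02 for neutrophil and mast cell markers, 2.86 for fat cell markers and 0.22 for skeletal muscle markers. With the length term they were −0.02 for serine and amino acid stress genes and 0.21 for endothelial markers, and with library totals −0.06 for endoplasmic reticulum stress genes. In females alone they were −1.09 for cell cycle, −0.76 for interferon response, −0.00 for lymphatic and 0.25 for skeletal muscle genes. Without nontransgenic replicate 1 and deletion replicate 2 they were −0.22 for cell cycle and 0.86 for B-cell genes. Without 1 library the medians ran from 0.15 to 0.39 for sarcomere, 0.16 to 0.38 for glucose use, −0.01 to 0.15 for endoplasmic reticulum stress, −0.28 to 0.07 for serine and amino acid stress, −1.15 to −0.33 for cell cycle, −0.37 to 0.11 for interferon response, −2.35 to 0.69 for B-cell, −1.37 to −0.06 for neutrophil and mast cell, −0.76 to −0.23 for fibroblast, −3.10 to 0.71 for fat cell and −0.65 to 0.19 for skeletal muscle genes. The alternatives with length, with a pair of libraries left out, with DESeq2 under another term or without 1 library, and the counts of list members, were chosen after seeing the data. At 3 libraries a group, departures of 2-fold were mostly missed in simulated data.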
